A study of Mus musculus with 36 samples.

Results

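Glucose metabolism in the developing and adult mouse heart was described through 38 genes of glucose transport, glycolysis, lactate and pyruvate handling, glycogen and the pentose phosphate pathway, out of 20701 genes read by the array. The 38 genes were chosen by name, and each was read from 1 probe set, a group of short probes for 1 transcript: the probe set with the highest mean over all arrays. All 38 were found, with 85 probe sets in all, and 15 of them had 1 probe set. Whole hearts of OF1 mice, an outbred strain, were measured on 36 Affymetrix mouse genome arrays, 3 for each of 12 stages. These were the 10 embryonic days E10.5 through E19.5 and a young and an old adult stage. The E10.5 and E11.5 arrays all carry the label mixed for sex, while later stages have a female, a male and a mixed array each. The young adult stage is 10 weeks of age, and the old adult stage is 14 months in the series description and 10 months in the paper. The labels list no transgene or treatment. The methods describe the triplicates as biological samples, the mixed ones holding hearts of both sexes pooled, and the number of hearts in a pool was not given in the sources used here, so a p value measures the spread between these arrays. Values are deposited log2 intensities, so a difference of 1 is a 2-fold change, and levels are compared only within a gene, since probe sets of different genes are not on 1 scale.

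Glycolysis splits glucose into pyruvate and yields ATP without oxygen. The embryonic heart works at low oxygen and depends largely on glucose and lactate, and the heart turns to oxidizing fatty acids around and after birth. Several steps are carried out by isozymes, related proteins from different genes, with a widely expressed form and a form typical of muscle. Glucose is also stored as glycogen, burned through pyruvate dehydrogenase, or sent through the pentose phosphate pathway, which makes NADPH and ribose for nucleotides.

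The labeled tissue was checked first, because a protocol field of the labels speaks of liver where the methods speak of heart. All 9 cardiomyocyte markers found on the array had stage means above 5 at each of the 12 stages, whereas of the 8 liver markers 1 exceeded 5 in the young adult and 0 at E10.5, E15.5, E19.5 and in the old adult. Albumin (Alb) stood at 3.27 at E10.5 and 4.05 in the young adult. The mean level of 12 skeletal muscle genes lay between 3.7 and 3.84 on the E10.5 arrays and between 3.75 and 4.16 on the young adult arrays, and that of 7 adipocyte genes between 2.83 and 3.0 at E10.5 and between 4.74 and 5.8 in the young adult. In whole tissue, fewer cells of a type and less RNA per cell cannot be told apart. The array titles begin differently up to E16.5 and after it, the change falling at the female array of E16.5. The titles of both adult stages begin as the later ones do. If that marks a batch, it cannot be told apart from late gestation and adulthood. This holds also for the comparisons of E10.5 with E19.5 and with the young adult.

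More of the 38 genes fell than rose between the early embryo and the adult. The stages were compared by limma, which fits a linear model and steadies the variance estimate of a probe set by borrowing from the rest, with Benjamini-Hochberg adjustment over all 45101 probe sets. In the young adult 8 of the 38 genes were higher than at E10.5 and 23 were lower at an adjusted p under 0.05, and 7 were not called. Over all 20701 genes, read from 1 probe set each, 38.6% were higher and 28.5% lower. The median log2 fold change of the 38 was -0.68, against 0.21 over all genes and -0.34 over the 11317 genes with a stage mean above 5. A stricter limit, used here for calling a differentially expressed gene (DEG), asks for a change of more than 2 on the log2 scale (4-fold) in either direction, a stage mean above 5 and an adjusted p below 1e-05. It was met by 7 of the 38, all lower in the young adult: Slc2a1, Slc2a3, Pfkp, Aldoc, Pgam1, Eno1 and Slc16a1, beside 5.14% of all genes lower and 2.64% higher. The count was 4 without the first or the second E10.5 array and 3 in a fit of the 6 arrays alone, and the 8 higher genes were 5 without the third E10.5 array. Averaging all probe sets of a gene, dim ones included, left 3 DEGs, and it brought Slc2a3 to -1.48, Aldoc to -0.85 and Slc16a1 to -0.96 on the log2 scale. The split between higher and lower depends on the scaling: it was 11 and 20 after a second quantile normalization, and 12 and 16 when each array was centered on the probe sets above 5, a step that moved the median of all genes from 0.21 to 0.74. Over all 20701 genes the counts were 6529 higher and 4751 lower after the second normalization, and 13167 and 3736 with centering. The median of the 38 was then -0.5 and -0.15, against 0.11 and 0.74 over all genes.

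Falls among the 38 exceeded the share of all genes before birth, and after E19.5 the counts lay near that share. From E10.5 to E19.5, 6 of the 38 rose and 17 fell, where 26.2% of all genes rose and 23.6% fell, and 3 met the DEG limit, all lower (background 1.52% lower and 1.0% higher): Slc2a1, Slc2a3 and Pgam1. The median of the 38 was -0.41, against 0.16 over all genes and -0.21 over the genes with a stage mean above 5. The split was 9 and 13 after the second quantile normalization and 9 and 11 with centering. Over all 20701 genes the counts were 4513 higher and 3747 lower after that normalization, and 11557 and 3349 with centering. From E19.5 to the young adult, 4 rose and 8 fell, beside 14.7% and 17.0% of all genes. The median was -0.18, against 0.05 over all genes and -0.1 over the genes with a stage mean above 5. Only Aldoc met the DEG limit in that interval, and it was lower (background 1.02% lower and 0.787% higher). It missed the limit without the male young adult array, with centering, on the mean of its probe sets and in a fit of the 6 arrays alone. These comparisons share the E10.5, E19.5 and young adult arrays with each other and with the comparison of young adult and E10.5. Of the 38 genes, 17 had their highest stage mean at E10.5 and 15 their lowest in the young adult. The same counts over all genes were not made. Across the 12 stages 31 of the 38 stayed above a mean of 5, 5 did so at some stages, and Slc16a3 and Gbe1 at none.

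**Figure D1:**
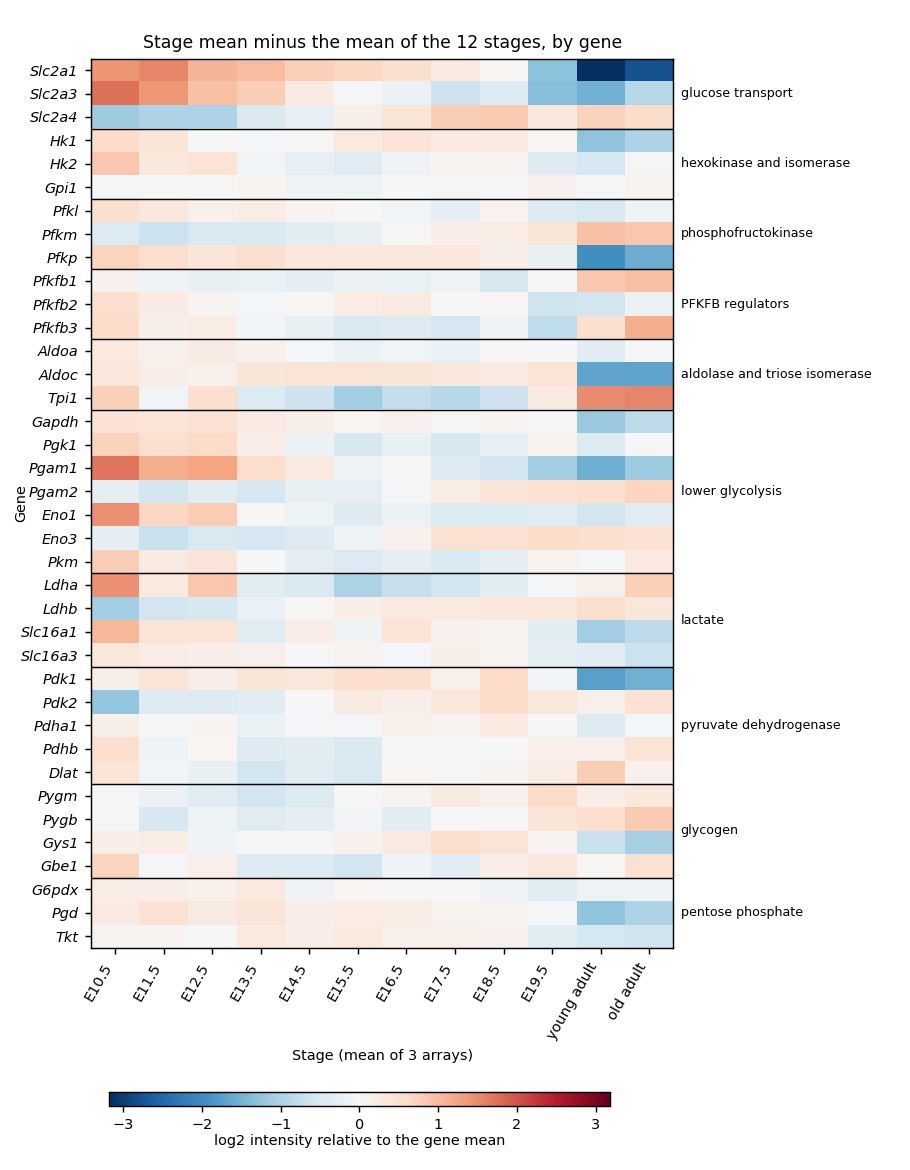
Stage means of the 38 genes (rows, grouped by role) at the 12 stages (columns), each as log2 intensity minus the gene's mean over the 12 stages; red is above and blue below that mean. Slc2a1, Slc2a3 and Pgam1 turn from red to blue with age, Slc2a4, Pfkm and Ldhb from blue to red, and Aldoc, Pfkp and Pdk1 are bluest in the adult columns.

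Glucose enters cells through carriers of the Slc2a family, and the 3 that were followed moved in opposite directions. Slc2a1 encodes GLUT1, the basal carrier of fetal tissue, Slc2a3 encodes the high-affinity carrier GLUT3, and Slc2a4 encodes the insulin-responsive GLUT4 of muscle and fat. Slc2a1 and the phosphoglycerate mutase genes Pgam1 and Pgam2 each have a single RefSeq start site, and their promoter windows are shown because Slc2a1 and Pgam1 fell and Pgam2, the muscle partner of Pgam1, rose. Each window runs from 250 bases before to 50 bases after the start in RefSeq's GRCm38.p6 annotation. Slc2a1 lies at chr4:119108495-119108794 on the + strand, Pgam1 at chr19:41911621-41911920 on the + strand and Pgam2 at chr11:5803747-5804046 on the - strand. Capitals mark ACGTG, a form of the core sequence bound by hypoxia-inducible factors, and TATAAA, the TATA box, on either strand. Other forms of that core were not searched.
Slc2a1: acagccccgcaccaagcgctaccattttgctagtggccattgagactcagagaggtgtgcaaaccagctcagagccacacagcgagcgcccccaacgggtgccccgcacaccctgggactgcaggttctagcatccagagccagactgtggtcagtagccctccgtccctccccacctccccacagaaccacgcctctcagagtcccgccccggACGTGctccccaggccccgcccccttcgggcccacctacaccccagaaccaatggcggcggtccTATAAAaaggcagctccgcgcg
Pgam1: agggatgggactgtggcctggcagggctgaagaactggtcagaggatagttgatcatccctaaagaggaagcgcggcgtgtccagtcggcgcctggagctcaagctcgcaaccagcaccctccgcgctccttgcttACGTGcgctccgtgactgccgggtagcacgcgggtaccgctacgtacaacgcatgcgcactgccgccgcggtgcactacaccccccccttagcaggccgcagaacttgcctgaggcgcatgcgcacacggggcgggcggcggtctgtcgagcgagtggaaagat
Pgam2: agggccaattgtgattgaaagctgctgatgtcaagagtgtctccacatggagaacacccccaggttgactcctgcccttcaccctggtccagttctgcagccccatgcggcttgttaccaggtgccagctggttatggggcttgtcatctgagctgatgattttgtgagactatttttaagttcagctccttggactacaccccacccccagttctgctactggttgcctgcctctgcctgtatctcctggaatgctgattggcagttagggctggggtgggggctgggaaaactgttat
ACGTG begins 36 bases before the start in Slc2a1 and 114 bases before it in Pgam1, and TATAAA begins 29 bases after the annotated start in Slc2a1. The Pgam2 window holds no match. RefSeq windows were matched for 36 of the 38 genes, 56 windows in all. ACGTG on either strand was in 24 of the 56 (42.9%) and in 19.6% of all 32851 windows. CACGTG, which contains ACGTG, was in 10.7% of the 56 and 7.15% of all, and TATAAA in 3.57% and 13.6%. Among the DEGs lower in the young adult than at E10.5, ACGTG was in 1 of 1 window each of Slc2a1, Pgam1 and Slc16a1. It was in 1 of 2 of Aldoc, 0 of 1 of Pfkp and 0 of 3 of Eno1. Among the genes called higher in that comparison, it was in 2 of 4 of Pfkm, 1 of 2 of Pdk2 and 1 of 1 of Pygb. It was in 0 of 4 of Pfkfb1 and in 0 of 1 each of Pgam2, Eno3 and Ldhb. Slc2a3 and Slc2a4 had no matched window. These are matches of letters, not measured binding.

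Slc2a1 read 11.79, 11.77 and 12.18 on the E10.5 arrays, 9.38, 9.01 and 9.23 at E19.5, and 7.41, 7.25 and 7.33 in the young adult, so that no array of a later group reached the one before. It fell at 8 of the 9 daily steps from E10.5 to E19.5, and the last step was from 10.57 to 9.21. The log2 fold change from E10.5 to the young adult was -4.58 (SE 0.16, 24.0-fold, limma adjusted p = 1.19e-20), the largest of the 38, and its other probe sets gave -5.72 and -5.38. Slc2a3 read 8.59, 8.66 and 8.67 at E10.5, 5.56, 5.51 and 5.51 at E19.5, and 5.33, 5.5 and 5.24 in the young adult. The change was -3.12 (SE 0.166, adjusted p = 1.58e-15) up to E19.5, or -1.45 on the mean of its probe sets, and -0.17 (SE 0.166, adjusted p = 0.493) from there to the young adult. Slc2a4 read 6.59, 6.26 and 6.65 at E10.5, 7.9, 7.93 and 8.12 at E19.5, and 8.41, 8.5 and 8.18 in the young adult. It rose by 1.86 on the log2 scale (SE 0.164, 3.64-fold, adjusted p = 3.64e-11), and its second probe set by 0.89. The rise was under way before birth, from 6.67 at E12.5 to 8.42 at E17.5.

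Markers of blood and fat changed over the same stages. The mean level of 9 erythroid genes lay between 6.82 and 7.57 on the E10.5 arrays, 3.98 and 4.05 at E19.5, and 3.72 and 3.85 in the young adult. Embryonic globin Hbb-y stood at 13.6 at E10.5 and 3.47 at E19.5. The part of blood cells in the fall of Slc2a1 was not tested. From E19.5 to the young adult the log2 fold change of Slc2a1 was -1.88 (SE 0.16), and erythroid genes moved in both directions: Ahsp went from 6.54 to 4.88 and Slc4a1 from 5.5 to 4.23, Alas2 from 5.44 to 6.34, and Hbb-y from 3.47 to 3.1. The mean level of the 7 adipocyte genes lay between 2.83 and 3.0 on the E10.5 arrays, 3.66 and 3.84 at E19.5, and 4.74 and 5.8 in the young adult. Among them Adipoq stood at 2.32, 2.4 and 5.14 at these stages, while Plin4, a coat protein of lipid droplets, stood at 4.28, 8.02 and 8.55 and so went up over the same stages as Slc2a4. The part of fat cells in the rise of Slc2a4 was not tested.

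Hexokinases trap glucose in the cell by phosphorylating it. Hk1, the widely expressed form, read 9.9, 9.97 and 10.05 at E10.5, 9.49, 9.35 and 9.44 at E19.5, and 8.12, 8.18 and 8.03 in the young adult. It fell by 1.86 on the log2 scale in all (SE 0.184, adjusted p = 4.36e-10), and of this by 1.31 after E19.5 (SE 0.184, adjusted p = 1.28e-06). On the mean of its probe sets, 1 of them dim, the change after E19.5 was -0.62 and that before it -1.08. For Hk2, the insulin-responsive form of muscle, the fall lay before birth. It went from 7.88, 8.31 and 7.81 at E10.5 to 6.92, 6.7 and 6.58 at E19.5 (-1.27, SE 0.222, adjusted p = 2.76e-05), and read 6.36, 6.78 and 6.62 in the young adult. Gpi1, the isomerase of the next step, had the narrowest range of the 38, with stage means from 11.67 to 11.95, and passed no comparison on that probe set. Of its 3 other probe sets, a pair fell from E10.5 to the young adult (-0.83 and -0.51, adjusted p = 0.00202 and 0.0384), and the last gave -0.09 (adjusted p = 0.586).

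Phosphofructokinase commits sugar to glycolysis, and its muscle subunit rose while the platelet subunit fell. Pfkm, the muscle subunit, read 7.57, 7.64 and 7.17 at E10.5, 8.26, 8.28 and 8.32 at E19.5, and 8.72, 8.8 and 8.96 in the young adult, with no overlap between the groups. Its rise over the whole span was 1.37 on the log2 scale (SE 0.167, 2.58-fold, adjusted p = 3.16e-08). After E19.5 it rose by 0.54 (adjusted p = 0.0133), a call lost without the female young adult array (0.47, adjusted p = 0.0574). Pfkp, the platelet subunit, read 9.27, 9.34 and 9.27 at E10.5, 8.54, 8.41 and 8.06 at E19.5, and 6.62, 6.11 and 7.12 in the young adult. It fell by 2.68 (SE 0.184, 6.41-fold, adjusted p = 1.19e-13), of which 1.72 came after E19.5, where the mean of its probe sets gave -1.05. Pfkl, the liver subunit, fell by 1.01 (SE 0.25, adjusted p = 0.000951), a call that was lost with centering (-0.48, adjusted p = 0.0604). Its other probe sets gave -0.09 and -0.06 (adjusted p = 0.651 and 0.75), so the fall of Pfkl rests on 1 probe set of 3.

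The PFKFB enzymes make and remove the fructose bisphosphate that activates phosphofructokinase. Pfkfb1 rose from a mean of 4.15 at E19.5 to 5.02 in the young adult (log2 fold change 0.88, SE 0.158, adjusted p = 6e-05), close to the limit of 5. Pfkfb3 went down and up again: it read 5.1, 4.92 and 4.46 at E10.5, 3.32, 3.54 and 3.46 at E19.5, and 3.91, 4.95 and 5.38 in the young adult, with changes of -1.38 (SE 0.254, adjusted p = 5.31e-05) and 1.3 (SE 0.254, adjusted p = 0.000168), or -0.52 and 0.82 on the mean of its probe sets. Pfkfb2, the heart form, read 6.29, 6.23 and 6.08 at E10.5, 5.44, 4.89 and 4.81 at E19.5, and 4.66, 4.93 and 5.67 in the young adult. Its probe sets disagreed. The highest gave -1.11 from E10.5 to the young adult (adjusted p = 0.00178), and the 3 others, all with stage means under 5, gave 0.72, 1.19 and 1.57. The mean of its probe sets gave 0.59 (adjusted p = 0.00724), so no direction is given for this gene.

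Aldolase and triose phosphate isomerase split and balance the sugar phosphates. Aldoc, the brain form, read 6.18, 6.15 and 5.93 at E10.5, and 6.28, 6.3 and 5.96 at E19.5, with stage means between 5.92 and 6.18 through gestation. In the young adult it read 3.46, 4.5 and 4.23. The whole fall of 2.12 (SE 0.242, 4.35-fold, adjusted p = 3.27e-08) lay between E19.5 and the young adult, and the old adult arrays read 4.09, 4.16 and 3.99. Aldoa, the muscle form, had a fall of 0.68 by the young adult (SE 0.266, adjusted p = 0.0273) that did not hold with centering (-0.15, adjusted p = 0.525). Tpi1 read 9.71, 9.85 and 8.97 at E10.5, 7.67, 7.22 and 8.11 at E15.5, and 10.35, 10.27 and 10.16 in the young adult. On the E19.5 arrays it read 9.62, 9.64 and 7.77, where the mixed-sex array was far below the others. Its rise of 1.25 from E19.5 to the young adult (SE 0.348, adjusted p = 0.00639) was 0.63 without that array (adjusted p = 0.128).

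In lower glycolysis the widely expressed isozymes Pgam1 and Eno1 fell over the whole span, and the muscle isozymes Pgam2 and Eno3 rose, by amounts whose calls rested on single arrays. Phosphoglycerate mutase shifts a phosphate group within the 3-carbon intermediate. Pgam1, its widely expressed gene, read 9.77, 9.91 and 9.25 at E10.5, 7.25, 7.02 and 6.25 at E19.5, and 6.33, 6.29 and 6.51 in the young adult. It fell by 3.26 (SE 0.241, 9.61-fold, adjusted p = 6.75e-13), and by 2.8 of that before birth (SE 0.241, adjusted p = 1.02e-10). Pgam2, its muscle gene, read 9.93, 9.77 and 9.23 at E10.5, 10.6, 10.54 and 10.06 at E19.5, and 10.58, 10.54 and 10.28 in the young adult. Its rise of 0.83 (SE 0.319, adjusted p = 0.0251) was 0.62 without the third E10.5 array, the lowest of its stage (adjusted p = 0.124), and 0.77 and 0.79 without the male or the mixed young adult array (adjusted p = 0.069 and 0.0625), and 0.68 with sex as a replicate block (adjusted p = 0.0736). Enolase makes phosphoenolpyruvate. Eno1, the widely expressed gene, read 9.82, 9.91 and 9.33 at E10.5 and 7.73, 7.66 and 7.62 in the young adult, a fall of 2.02 (SE 0.2, 4.05-fold, adjusted p = 4.79e-10). Eno3, the muscle gene, read 9.16, 9.06 and 8.52 at E10.5 and 9.66, 9.92 and 9.63 in the young adult, a rise of 0.82 (SE 0.293, adjusted p = 0.016) that was 0.63 without the same E10.5 array (adjusted p = 0.0914). Its change up to E19.5 was 0.88 (adjusted p = 0.0149), or 0.69 without that array (adjusted p = 0.0817) and 0.77 without the female E19.5 array (adjusted p = 0.0554).

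Among the genes with no isozyme partner in the set, Pgk1, which yields the first ATP of glycolysis, fell by 1.17 from E10.5 to the young adult (SE 0.225, adjusted p = 4.89e-05), with -1.67 and -1.1 on its other probe sets. Pkm, the pyruvate kinase of muscle and most embryonic tissue, fell by 0.83 (SE 0.231, adjusted p = 0.00261), and with centering the value was -0.31 (adjusted p = 0.136). Gapdh, which is often used as a reference gene, read 12.48, 12.43 and 12.47 at E10.5, 12.19, 12.16 and 11.63 at E19.5, and 10.89, 10.93 and 10.7 in the young adult. The young adult arrays were below both earlier groups, and the fall was 1.62 (SE 0.237, 3.07-fold, adjusted p = 8.62e-07), or -0.89 on the mean of its probe sets (adjusted p = 0.000699). These readings come from a control probe set at the 3′ end of Gapdh. The 3 other probe sets gave values from -1.51 to 0.24 over this span, so size and direction depend on the probe set. From E19.5 on, Gapdh had a change of -1.15 (SE 0.237, adjusted p = 0.000321), but -0.1 on the mean of its probe sets (adjusted p = 0.776).

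**Figure D2:**
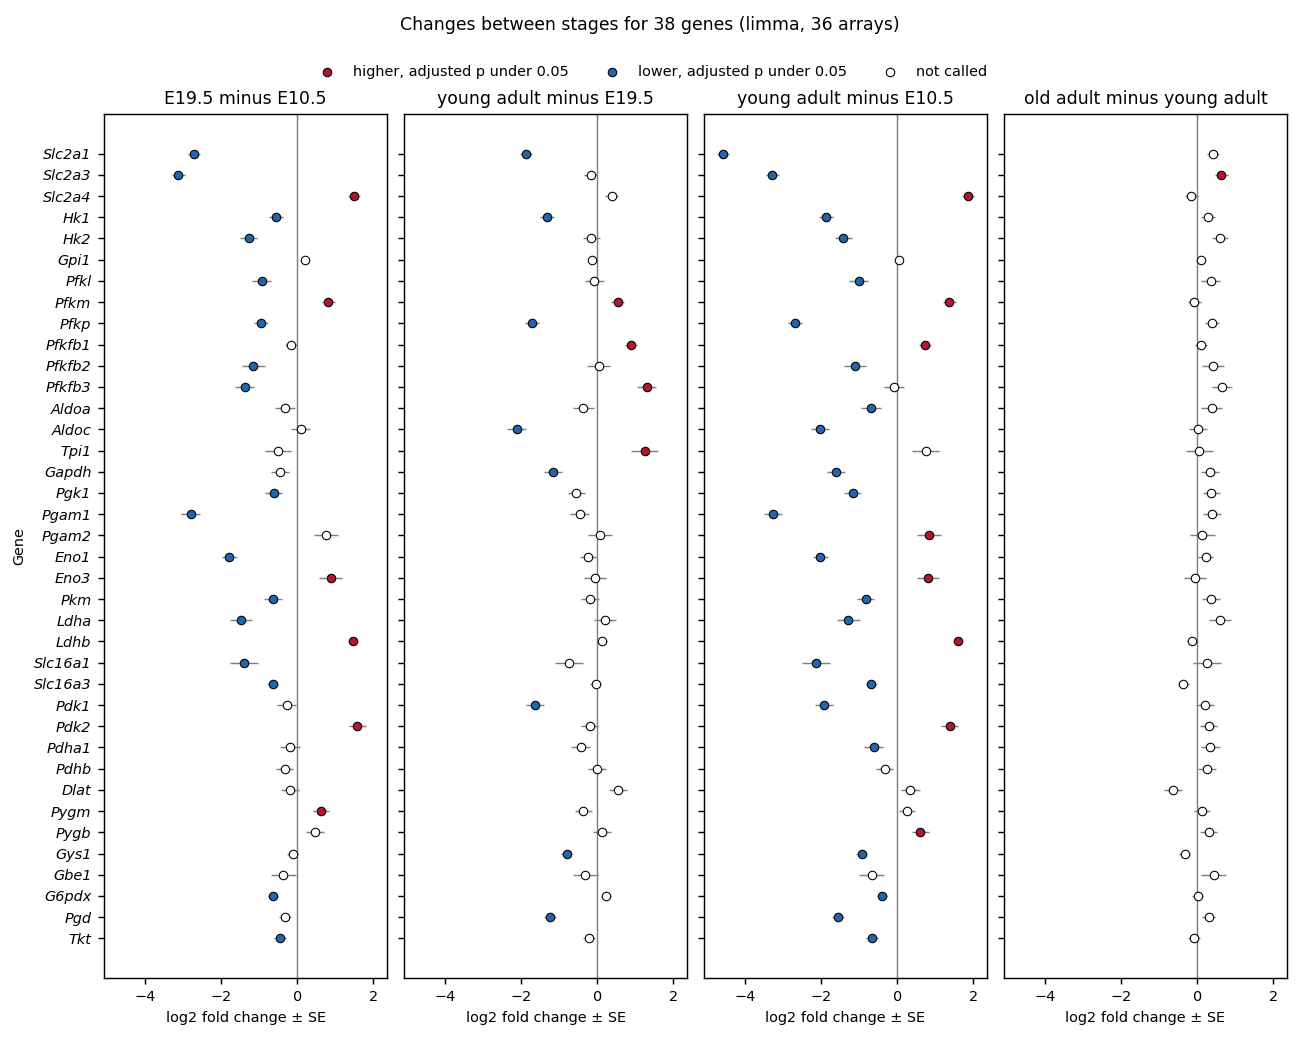
Log2 fold change with its standard error (horizontal axis) of each of the 38 genes (vertical axis) in 4 comparisons of stages, from limma on 36 arrays. Red points are higher and blue points lower at an adjusted p under 0.05, and open points were not called. Slc2a1 at -4.58 lies farthest left in the comparison of young adult and E10.5, and in the comparison of old and young adult 37 of the 38 points are open.

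Lactate dehydrogenase converts pyruvate and lactate into each other, Ldhb being the heart form and Ldha the form of skeletal muscle and low-oxygen tissue. Ldhb read 10.25, 10.3 and 10.46 at E10.5, 11.75, 11.86 and 11.8 at E19.5, and 11.96, 11.91 and 11.95 in the young adult. Its mean was higher after each of the 9 daily steps, and it was 1.6 higher in the young adult than at E10.5 (SE 0.137, 3.03-fold, adjusted p = 1.89e-11). Its 3 other probe sets gave -0.21, 0.55 and 0.58, so size and direction depend on the probe set. Ldha read 9.97, 10.18 and 9.1 at E10.5, 7.33, 7.1 and 7.44 at E15.5, 8.65, 8.67 and 7.5 at E19.5, and 8.35, 8.53 and 8.54 in the young adult. It was lowest at E15.5, and its young adult level fell by 1.28 from that of E10.5 (SE 0.292, adjusted p = 0.000417). Slc16a1 encodes MCT1, a carrier of lactate and pyruvate. It read 10.2, 10.08 and 9.4 at E10.5, 8.87, 8.34 and 8.28 at E19.5, and 7.86, 7.93 and 7.46 in the young adult, a fall of 2.14 (SE 0.367, 4.42-fold) whose adjusted p of 9.98e-06 was close to the DEG limit. Slc16a3, the lactate exporter MCT4, stayed low, with stage means from 3.01 to 4.05, and its change of -0.68 over the whole span (adjusted p = 0.000124) was -0.15 with centering (adjusted p = 0.402).

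Pyruvate dehydrogenase feeds pyruvate into the mitochondrial cycle, and its kinases switch it off. Pdk2, a kinase abundant in adult heart, read 3.61, 3.66 and 4.37 at E10.5, 5.55, 5.3 and 5.52 at E19.5, and 4.78, 5.17 and 5.84 in the young adult. It rose by 1.58 before birth (SE 0.218, 2.98-fold, adjusted p = 7.99e-07) and its change from E19.5 to the young adult was -0.2 (SE 0.218, adjusted p = 0.551). Pdk1, a kinase induced by low oxygen, read 8.02, 7.88 and 8.16 at E10.5, 7.97, 7.82 and 7.44 at E19.5, and 6.12, 6.4 and 5.77 in the young adult. It fell after E19.5, by 1.64 (SE 0.241, 3.12-fold, adjusted p = 2.83e-06). Its 3 other probe sets, all with a stage mean above 5, gave -0.24, -0.69 and -0.26 (adjusted p = 0.38, 0.0275 and 0.458), so the size of this fall depends on the probe set. Of the enzyme's own subunits, Pdha1 fell by 0.62 by the young adult (SE 0.253, adjusted p = 0.0338), a call that was lost with centering (-0.09, adjusted p = 0.688) and on the mean of its probe sets (-0.3, adjusted p = 0.154). Pdhb and Dlat were not called on the probe sets read. The second probe set of Pdhb gave -1.16 from E10.5 to the young adult and -1.47 after E19.5. The other probe sets of Dlat gave 0.19 and 0.96 over the whole span (adjusted p = 0.541 and 0.0175).

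The glycogen genes had no DEG among them. Gys1, glycogen synthase of muscle, read 6.84, 6.73 and 6.5 at E10.5, 6.59, 6.69 and 6.43 at E19.5, and 5.83, 5.88 and 5.59 in the young adult, and fell by 0.8 after E19.5 (SE 0.143, 1.75-fold, adjusted p = 4.9e-05). The mean of its probe sets gave -0.17 (adjusted p = 0.27), and -0.06 over the whole span (adjusted p = 0.662). Pygm and Pygb, the muscle and brain forms of glycogen phosphorylase, rose where they were called: Pygm by E19.5 and Pygb, by 0.61 (SE 0.23, adjusted p = 0.023), by the young adult. The call for Pygb was lost in the fit with sex as a replicate block (0.52, adjusted p = 0.0604) and in that of the 6 arrays alone (0.61, adjusted p = 0.0575). Without the first or the third E10.5 array its value was 0.59 or 0.4 (adjusted p = 0.0554 and 0.157), and without the female young adult array it was 0.42 (adjusted p = 0.14). Gbe1, the branching enzyme, was at or below 3.81 at every stage and was not called. In the pentose phosphate pathway all 3 genes fell from E10.5 to the young adult. Pgd, the second dehydrogenase of its oxidative arm, read 9.36, 9.33 and 9.78 at E10.5, 9.22, 9.14 and 9.12 at E19.5, and 7.52, 7.98 and 8.3 in the young adult, and fell by 1.56 (SE 0.16, 2.95-fold, adjusted p = 9.34e-10). For G6pdx, the entry enzyme, and Tkt, transketolase, the falls of 0.4 and 0.66 did not hold with centering (0.13, adjusted p = 0.487, and -0.13, adjusted p = 0.533).

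Isozyme pairs were then compared within each array, as the difference between a pair of genes, so that a scaling factor of an array cancels. The 13 pairs were tested between 6 early arrays (E10.5 and E11.5), 6 late fetal arrays (E18.5 and E19.5) and 6 mature arrays (young and old adult) by a two-sided exact permutation test over 924 regroupings, whose smallest p is 0.00216, with Benjamini-Hochberg adjustment over 26 tests. The late fetal arrays serve in both contrasts, and the arrays of the 2 stages in a group were treated as exchangeable. The differences are not ratios of the transcripts, and only their shifts are read. From early to late fetal, 8 pairs shifted, and from late fetal to mature, 9.

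The difference between Slc2a4 and Slc2a1 shifted by 3.75 on the log2 scale before birth (13.5-fold, exact permutation adjusted p = 0.00402) and by 2.42 after (5.35-fold, adjusted p = 0.00402, exact). Array by array it was between -5.55 and -5.19 in the early group and between 0.0 and 1.26 in the mature group. Pgam2 against Pgam1 shifted by 3.14 before birth (8.82-fold, exact permutation adjusted p = 0.00402) and by 0.69 after (exact permutation adjusted p = 0.0298), and its mean difference went up at every daily step, reaching 3.56 at E19.5. The later, smaller shift lost its call without any 1 of 7 arrays, which were the 3 of E18.5, the male and the mixed young adult and the male and the female old adult (exact permutation adjusted p up to 0.0596). Eno3 against Eno1 shifted by 2.47 before birth (5.54-fold, exact permutation adjusted p = 0.00402) and by 0.04 after (exact permutation adjusted p = 0.849). Ldhb against Ldha shifted by 2.29 before birth (exact permutation adjusted p = 0.00402), and its stage mean stood highest at E15.5, where Ldha was lowest. On the E10.5 arrays this difference was 0.28, 0.12 and 1.37, beside 2.63, 2.38 and 3.58 for the difference between the 3′ and 5′ probe sets of beta-actin, a sign of RNA quality. With the actin difference as a covariate the change of Ldha up to E19.5 was -0.42 (limma adjusted p = 0.388) and that of Ldhb 1.17 (limma adjusted p = 2.39e-05), while the shift of the pair itself was not tested with it.

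Several other pairs shifted after birth, and some of these had shifted before it as well. The difference between Pfkm and Pfkp moved by 1.53 before birth and by 2.33 after it (exact permutation adjusted p = 0.00402 for both), and that between Pdk2 and Pdk1 by 1.35 and 1.71 (exact permutation adjusted p = 0.00402 for both), the later one 0.85 on the mean of all probe sets (exact permutation adjusted p = 0.0225). The young adult female array stood apart for the kinases, at 0.07 against -1.34 and -1.23. Aldoa against Aldoc shifted by 1.84 after birth (3.58-fold, exact permutation adjusted p = 0.00402), or 0.89 on the mean of all probe sets, and by -0.28 before (exact permutation adjusted p = 0.0732). Hk2 against Hk1 shifted by -0.44 before birth and by 1.19 after it, with exact permutation adjusted p = 0.0246 and 0.00402, and on the mean of all probe sets these were -0.13 and 0.49 (exact permutation adjusted p = 0.33 and 0.0265). Pygm against Pygb shifted the other way after birth, by -0.58 (exact permutation adjusted p = 0.00402). The lactate carriers Slc16a1 and Slc16a3 did not pass in either contrast, with shifts of -0.46 and -0.43 (exact permutation adjusted p = 0.207 and 0.269). For Slc2a3 against Slc2a1 the shift before birth was -0.36 (exact permutation adjusted p = 0.118), but 1.81 on the mean of all probe sets (exact permutation adjusted p = 0.00469), so its direction depends on the probe sets. The remaining calls were Pfkm against Pfkl, 1.45 before birth, Slc2a3 against Slc2a1, 2.02 after, and Pfkfb2 against Pfkfb3, -1.37 after, the last of which was -0.25 on the mean of all probe sets (exact permutation adjusted p = 0.384).

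**Figure D3:**
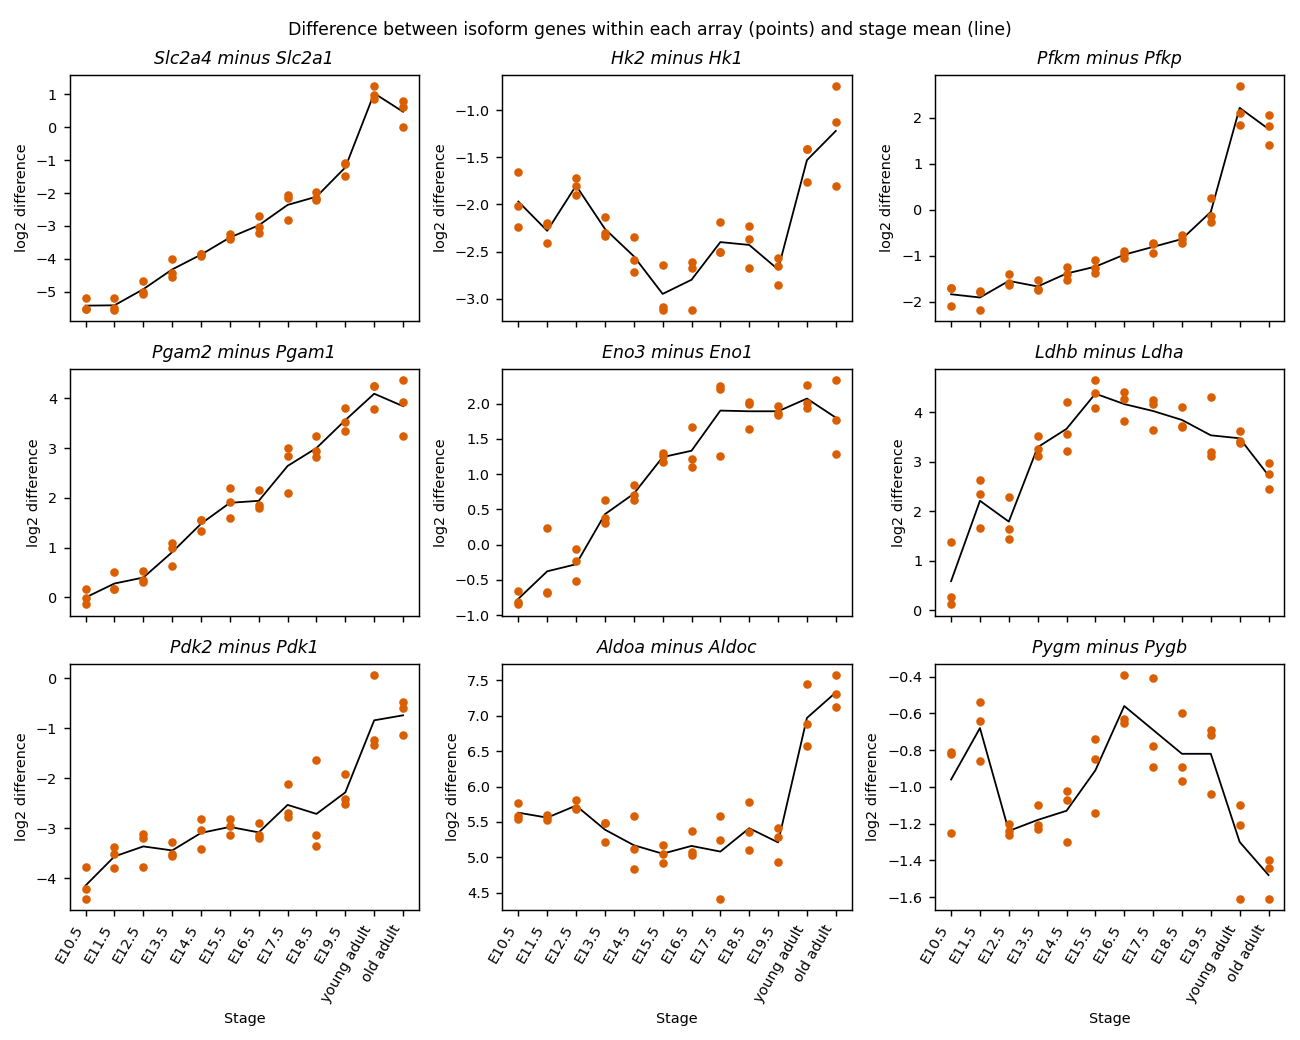
Difference between a pair of isozyme or carrier genes within each array (vertical axis, log2, a separate scale in each panel) at the 12 stages (horizontal axis); points are arrays and the line joins stage means. Slc2a4 over Slc2a1 and Pgam2 over Pgam1 climb through gestation, and Pfkm over Pfkp steps up between E19.5 and the young adult.

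Few of these genes were called between the young and the old adult. Of the 38, 1 was higher in the old than in the young adult and 0 were lower by limma at an adjusted p under 0.05. Over all genes 4.46% were higher and 3.13% lower at that adjusted limit. At an unadjusted p under 0.05 the counts of the 38 were 6 and 3, and the share of all genes at that limit was not computed. At the DEG limit the members gave 0, beside 0.00483% of all genes in either direction, which is 1 gene each. Slc2a3 was the gene that passed. It read 5.33, 5.5 and 5.24 in the young adult and 5.68, 6.09 and 6.21 in the old adult, a rise of 0.64 (SE 0.166, adjusted p = 0.0175) with no overlap of the arrays. The call was lost without the male young adult array, the mixed-sex old adult array or the female old adult array (0.62, 0.59 and 0.53, adjusted p = 0.0533, 0.0614 and 0.0735) and on the mean of its probe sets (0.19, adjusted p = 0.305). It was also lost with centering (0.49, adjusted p = 0.0625) and in a fit of the 6 adult arrays alone (0.64, adjusted p = 0.205). The split was 1 higher and 2 lower after the second quantile normalization and 0 and 2 with centering, where the lower pair was Dlat and Gys1 in both. Over all 20701 genes the counts were 775 higher and 848 lower after that normalization, and 486 and 937 with centering. The count of higher genes was 3 without the female young adult array and 2 without the female old adult array. Erythroid genes had a mean level between 3.61 and 5.1 on the old adult arrays against 3.72 to 3.85 on the young adult arrays, and endothelial genes one between 7.72 and 8.4 against 7.25 to 7.46, and their part in the change of Slc2a3 was not tested. Hk2 in the old adult spread from 6.53 to 8.05. The median of the 38 was 0.28, against 0.12 over the genes with a stage mean above 5.

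Other genes of the pathway were read from 5 lists, in which 27 genes rose and 26 fell from E10.5 to the young adult, or 47 and 18 with centering. Over all 20701 genes 7998 were higher and 5890 lower in that comparison, or 13167 and 3736 with centering. Of the 16 regulators of hypoxia and glucose use found on the array, 6 rose and 6 fell from E10.5 to the young adult, beside 38.6% and 28.5% of all genes. Epas1, the hypoxia-inducible factor of endothelium, rose by 3.23 (SE 0.335, adjusted p = 1.22e-09), and Hif1a fell by 2.88 (SE 0.21, adjusted p = 4.98e-13), from a mean of 10.9 at E10.5 to 8.02. Hif1a was higher again in the old adult (8.97, log2 fold change 0.95, adjusted p = 0.00537). Mlxipl, which encodes the glucose-responsive factor ChREBP, and Txnip, its target and a brake on glucose uptake, rose, by 3.14 and 3.0 (adjusted p = 3.18e-13 and 1.22e-11). The mean level of the 7 endothelial markers was higher in the adults too, between 7.25 and 7.46 in the young adult against 5.85 to 6.5 at E10.5. Among these markers Tek alone was lower in the young adult, at 7.9 against 8.64 at E10.5. The part of endothelial cells in the rise of Epas1 was not tested.

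Of 18 genes of lactate and pyruvate fate, 6 rose and 2 fell from E10.5 to the young adult, beside 38.6% and 28.5% of all genes. Mpc1, a subunit of the mitochondrial pyruvate carrier, rose by 2.65 (SE 0.374, 6.26-fold, adjusted p = 4.51e-07), of which 1.98 came after E19.5. Pdk3 fell by 1.99 (adjusted p = 1.31e-08) and Ldhd, which oxidizes D-lactate, rose by 1.46 (adjusted p = 2.09e-07). Pdk4, the kinase that spares glucose when fatty acids are used, peaked at E19.5: its stage mean was 6.02 at E18.5, 8.3 at E19.5 and 6.71 in the young adult, with changes of 2.24 from E10.5 to E19.5 (SE 0.331, adjusted p = 2.25e-06) and -1.59 after it (SE 0.331, adjusted p = 0.000373).

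Of 23 other glycogen genes 4 rose and 12 fell from E10.5 to the young adult, beside 38.6% and 28.5% of all genes. The largest falls were those of Pygl, liver phosphorylase, by 3.11 (SE 0.378, adjusted p = 2.84e-08), Gyg, the glycogenin on which glycogen is begun, by 2.75 (adjusted p = 5.66e-10), and Stbd1, a glycogen-binding protein, by 2.52 (adjusted p = 0.000149). Over the same span 9 of 16 other isozymes and entry enzymes rose and 3 fell, and 9 of the 16 exceeded a mean of 5 at some stage. Galk1, galactokinase, and Eno2, the neuronal enolase, fell by 1.25 and 1.21 (adjusted p = 0.00111 and 8.68e-06). Of 8 other pentose phosphate genes 2 rose and 3 fell over that span. Prps2 and Prps1, which make the ribose donor of nucleotides, fell by 1.3 and 1.04 (adjusted p = 0.0001 and 0.000132), while Rpia rose by 1.01 (adjusted p = 5.41e-08).

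Control probe sets placed at both ends of a transcript differed between stages, and some members moved with them. For beta-actin (Actb) the 3′ probe set exceeded the 5′ probe set by 2.86 at E10.5 (2.63, 2.38 and 3.58), 4.25 at E16.5, 4.06 at E19.5 and 2.83 in the young adult. For Gapdh the difference was 2.8 at E10.5 (2.25, 2.19 and 3.95), 4.82 at E16.5 and 1.84 in the young adult, so the third E10.5 array stood apart from its pair in both. The 3 Gapdh control probe sets gave different changes from E10.5 to the young adult, -1.62 at the 3′ end, -1.51 in the middle and -0.66 at the 5′ end (limma adjusted p = 8.6e-07, 0.0013 and 0.13). From E19.5 to the young adult they gave -1.15, -0.05 and 0.95 (limma adjusted p = 0.00032, 0.94 and 0.058). A relation of each of the 38 genes with the actin difference was tested over the 36 arrays, within stages, by a two-sided permutation test with 100000 resamples and adjustment over the 38 relations. Ldha passed with Pearson's r = -0.667 and Spearman's rho = -0.663 (permutation p = 0.00047 and 0.00092, adjusted 0.018 and 0.02), and r was -0.632 without the 2 arrays farthest from the median. Ldhb passed with r = 0.48 and rho = 0.602 (permutation p = 0.0014 for both, adjusted 0.027 and 0.02), and r was 0.397 without those arrays. Pfkfb3 passed by rho alone (-0.569, permutation p = 0.0015, adjusted 0.02; r = -0.407, permutation p = 0.0059, adjusted 0.056).

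With the actin difference as a covariate in limma, a setting chosen after seeing the data, the log2 fold change of Ldha from E10.5 to E19.5 went from -1.48 to -0.42 (adjusted p = 0.388). The change of Tpi1 from E19.5 to the young adult was then 0.49 (adjusted p = 0.552), that of Pfkm 0.21 (adjusted p = 0.605), that of Pfkfb3 0.73 (adjusted p = 0.161), and the change of Gapdh -0.88 (adjusted p = 0.082). Mean actin differences were 2.83 in the young adult and 2.86 at E10.5. Between these stages 8 members were higher and 24 lower, against 8 and 23 without the covariate. From E10.5 to E19.5, 4 members were higher and 12 lower, against 6 and 17 without it. Over all genes these counts were 1810 and 2902, against 5418 and 4895. From E19.5 to the young adult, 2 members were higher and 9 lower, against 4 and 8. Over all genes these counts were 1508 and 1901, against 3045 and 3514. Calls were thus lost across the array in these intervals, not only among the genes named above.

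**Figure D4:**
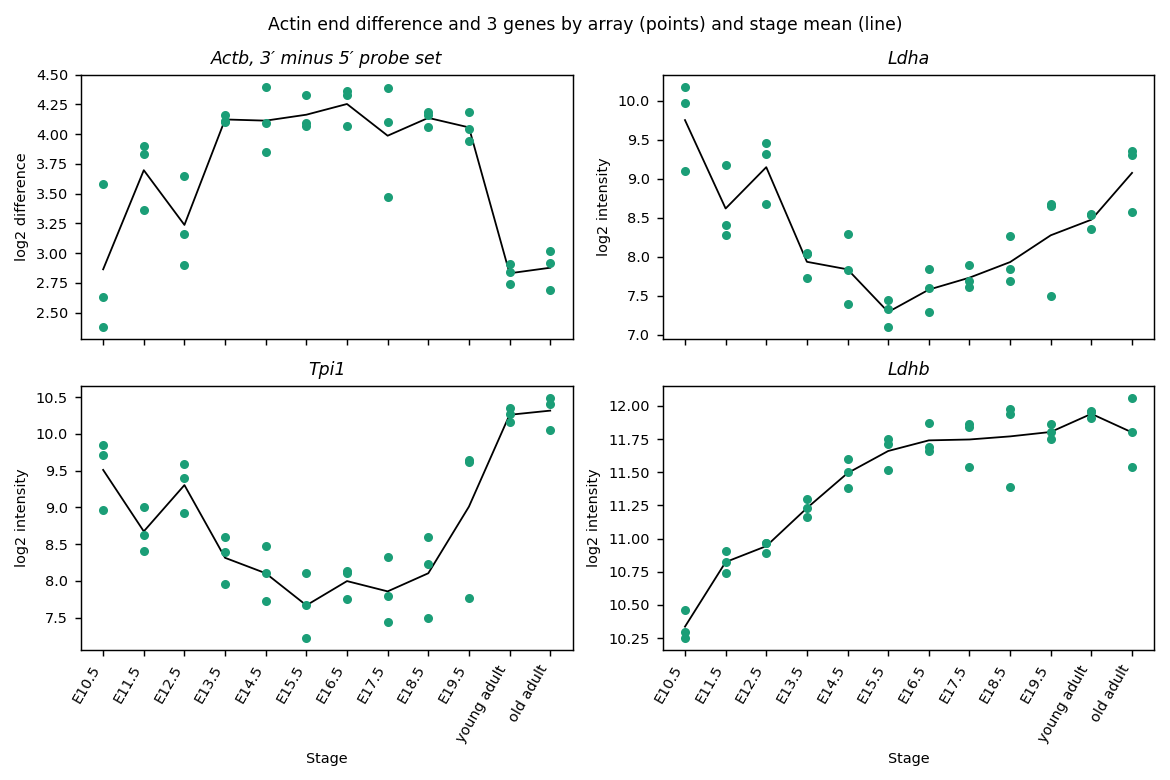
Difference between the 3′ and 5′ probe sets of Actb and the log2 intensity of Ldha, Tpi1 and Ldhb (vertical axes, a separate scale in each panel) on each array at the 12 stages (horizontal axis); points are arrays and lines join stage means. From E13.5 to E19.5 the stage mean of the actin difference lies between 3.99 and 4.25, and the lowest levels of Ldha (7.29) and Tpi1 (7.67) fall in this span.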

How the data were processed

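RNA from 36 mouse heart samples was hybridized by the authors to Affymetrix mouse genome arrays after labeling with a 3′ in vitro transcription kit, which reads the 3′ end of poly(A) RNA. The deposited values are log2 intensities that the authors made by robust multi-array average (RMA), which corrects for background, equalizes the distributions of the arrays and condenses the probes of a set into 1 value. Per the labels, Affymetrix Expression Console and Partek 6.6 were used. These values range from 1.31 to 14.04 and were used as deposited. A gene was read from the probe set with the highest mean over 36 arrays among those with its gene ID. There were 45101 probe sets, 6937 of them without a gene ID, and 20701 gene IDs. No pair of arrays held identical values. Microarrays give no read depth, and 3 arrays per stage limit the precision.

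Stages were compared in R 4.3.3 with limma 3.58.1: 12 stage means on all 36 arrays, prior degrees of freedom 6.96, Benjamini-Hochberg adjustment within each of 4 comparisons over all probe sets. The expression limit of 5 was applied after the fit. On simulated data with 100 changed probe sets per size, 67 of 100 were called at a change of 1 on the log2 scale and 99 of 100 at a change of 3 for young adult minus E10.5. All 38 members could be named. Values in full are given for the 5 largest increases and decreases of a comparison and for the members of pairs, and for the pathway lists the 3 largest changes, Pdk4, Hif1a and Mpc1, except that a gene of these lists is not reported here by name. The members, pairs and lists were chosen with earlier results of these data known. Promoter windows come from RefSeq (GRCm38.p6). The alternatives were a second quantile normalization, centering each array on the probe sets with a mean above 5, filtering before the fit, averaging a gene's probe sets, fitting only the 6 arrays compared, an intensity trend with a robust prior, a DEG limit of 1, a replicate block by sex label and leaving out each array.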

Additional observations from a re-analysis of the deposited data

Results flagged for a closer look

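In 2 of 39 groups of 6 arrays an isozyme difference had an array far from the others, by Dixon's ratio (critical value 0.625 for 6 arrays). Chance gives about 1 in 20 groups. The difference between Aldoa and Aldoc was 5.76 on the third E10.5 array and between 5.53 and 5.6 on the other 5 early arrays. The difference between Eno3 and Eno1 was 0.23 on the third E11.5 array and between -0.85 and -0.66 on the others. Without either array the exact permutation counts of shifted pairs from early to late fetal stayed at 8.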

How the results depend on the processing

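No called shift of a pair turned its direction under these alternatives, while shifts that had not been called turned for Slc2a3 against Slc2a1, Slc16a1 against Slc16a3, Eno3 against Eno1 and Pygm against Pygb. The called changes that turned were those of Pfkfb2 from E10.5 to the young adult on the mean of its probe sets (-1.11 to 0.59) and of G6pdx with centering (-0.4 to 0.13). Of the values compared, 401 of 420 values of named genes kept their side of the threshold and 19 lost their call, and of 390 values of pairs 368 kept it, 9 lost it, 10 gained it and 3 moved by more than the spread. With a DEG limit of 1 the counts of the 38 were 7, 6 and 16 for E19.5 minus E10.5, young adult minus E19.5 and young adult minus E10.5. The share of all genes at this limit was not computed, so these counts cannot be set beside it. With centering 11 of the 38 were lower at E19.5 than at E10.5, 0 were DEGs after E19.5, and 0 were higher and 2 lower in the old adult, while 36 pathway genes rose by E19.5 and 47 by the young adult (22 and 27 without centering), and 2 were lower in the old adult. After a second quantile normalization 2 members and 4 pathway genes were lower in the old adult. On the mean of all probe sets, and likewise with only the 6 arrays compared, DEGs numbered 0 after E19.5 and 3 for young adult minus E10.5, and 0 were higher in the old adult. With the actin difference as a covariate, chosen after seeing the data, 2 rose after E19.5, against 4 without it. Over all genes 1508 then rose, against 3045 without it. Leaving out 1 array gave 0 to 1 DEGs after E19.5, 4 to 7 DEGs and 5 to 9 higher genes for young adult minus E10.5, and 0 to 3 higher genes in the old adult. The filter before the fit and the intensity trend changed no count by over 1.5 times. The cause of these changes was not tested.

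Replicate numbers mark no shared animals, and sex labels stand in a different order of numbers at different stages, so the block used the sex label. With a replicate block by sex label, 6 genes rose and 23 fell for young adult minus E10.5 with 6 DEGs, and Pgam2 and Pygb lost their calls (0.68, limma adjusted p = 0.0736, and 0.52, adjusted p = 0.0604). Aldoc (-1.91) and Slc16a1 (adjusted p = 1.55e-05) missed the DEG limit and Pdk1 (-2.03) met it. The block changed no other call at an adjusted p under 0.05 among the 38. Young adult arrays alone, 3 against 3, cannot pass the exact test.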
